A study of Homo sapiens with 42 samples.

Results

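The RAD23B and KLF4 domain is an 860 kb stretch of human chromosome 9 (hg19 chr9:109840001-110700000) that lies on the lower-coordinate side of 3 contact viewpoints. It was taken as every listed contact position between these edges, in all libraries. The domain was chosen by its share of contacts in the G1, S4 and S6 fractions, low in S4 and back up in S6. Comparisons of these fractions are therefore a description without a test. Tests between primers include these libraries and are not free of that choice. The domain held 75588 of 686700 contacts, at 10243 of 140567 distinct positions, in 43 bins of 20 kb. The files carry no gene names, and no hg19 annotation was used here, so the genes of the domain are named by its rule and neither gene was placed in a bin.

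The contacts come from K562-FUCCI cells. K562 is a line from chronic myeloid leukaemia, here with a fluorescent reporter of the cell cycle knocked in at AAVS1, a genotype that all groups share. Unsynchronised cells were stained with a Hoechst DNA dye, sorted into G1 and 6 S-phase fractions (S1 to S6), fixed, cut with DpnII and ligated in situ, and ligation partners were read by primer extension. The labels place an Outside primer beyond a fountain and a Proximal and a Distal primer within it. Each of the 21 combinations of primer and fraction had 2 libraries, 42 in all, and the labels do not say whether these came from separate cultures, so every p-value rests on a spread between libraries that may be technical.

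A fountain is a plume of contacts on a contact map that widens with distance from a narrow site. During S phase the DNA is copied from many origins, and neighbouring chromatin is taken apart and rebuilt behind the forks. RAD23B takes part in the damage recognition step of nucleotide excision repair and carries ubiquitinated proteins to the proteasome. KLF4 is a zinc-finger transcription factor known for its part in differentiation and pluripotency.

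In RefSeq's GRCh38.p14 annotation, used here for names and gene order alone, RAD23B and KLF4 are neighbours among protein-coding genes, with 3 lncRNA genes and 2 pseudogenes between them. The protein-coding genes on either side of the pair are ZNF462 and ACTL7B. DpnII cuts at GATC, so a contact can be listed only near such a site. The 250 bases before the first listed start of RAD23B (plus strand) and before the start of KLF4 (minus strand), shown because these promoters give the domain its name, hold no GATC, which is the same on both strands, so no letter is in capitals.
RAD23B: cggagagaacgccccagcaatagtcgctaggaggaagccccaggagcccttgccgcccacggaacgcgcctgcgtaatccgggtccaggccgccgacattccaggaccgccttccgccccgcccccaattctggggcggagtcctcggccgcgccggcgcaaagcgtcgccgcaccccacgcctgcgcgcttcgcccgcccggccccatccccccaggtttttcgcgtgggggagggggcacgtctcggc
KLF4: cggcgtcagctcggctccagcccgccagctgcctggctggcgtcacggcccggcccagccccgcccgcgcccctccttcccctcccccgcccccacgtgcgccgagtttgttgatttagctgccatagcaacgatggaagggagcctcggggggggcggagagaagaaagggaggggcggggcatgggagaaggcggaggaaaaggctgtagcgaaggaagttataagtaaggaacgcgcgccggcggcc
Of 35116 promoter windows of this length in the same RefSeq table, 35.8% hold GATC. The G and C content was 73.2% for this RAD23B window and 69.2% for the KLF4 window.

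Every library held 16350 contacts, so the depth before the files were brought to this size is unknown. Between 36.2% and 72.0% of a library's contacts repeated a position already listed. Within the domain a library had from 648 to 2837 contacts, at 395 to 1644 distinct positions. Each viewpoint was set at the position a primer listed most often, 111110106 for Outside, 111624875 for Proximal and 111525048 for Distal. The near edge of the domain lay 410 kb, 925 kb and 825 kb below these. The local share is the percent of contacts over 20 kb and up to 2 Mb from the viewpoint that fell in the domain; its Wilson 95% interval reached from 0.548 to 0.921 points to either side and covers counting error only. Whether repeated positions are separate molecules is not known.

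All 3 viewpoints saw a smaller local share of the domain in S4 than in G1 and a larger one in S6 than in S4. From the Outside primer the 2 libraries of each fraction had 25.7 and 24.6% in G1, 26.0 and 23.4% in S1, 24.9 and 23.7% in S2, 23.1 and 22.4% in S3, 21.2 and 20.1% in S4, 26.7 and 25.9% in S5, and 27.2 and 26.2% in S6. Both S4 libraries lay below the other 12, and both S6 libraries above both G1 libraries. From the Proximal primer they had 15.0 and 14.9% in G1, 15.7 and 14.1% in S1, 12.7 and 12.4% in S2, 9.05 and 8.64% in S3, 7.39 and 7.88% in S4, 10.4 and 12.3% in S5, and 14.9 and 13.1% in S6. From the Distal primer they had 23.99 and 24.2% in G1, 22.9 and 23.1% in S1, 19.9 and 20.8% in S2, 16.3 and 16.8% in S3, 15.2 and 15.0% in S4, 19.4 and 20.6% in S5, and 21.7 and 22.2% in S6. For these 2 primers S4 was again the lowest fraction with no overlap, and S6 stayed below the G1 libraries for Distal. For Proximal the higher S6 library and the lower G1 library both had 14.9%.

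Relative to G1, the mean local share in S4 was lower by a log2 ratio of -0.97 for Proximal, -0.68 for Distal and -0.29 for Outside. S6 stood above S4 by log2 ratios of 0.88, 0.54 and 0.37 in the same order. S6 over G1 was -0.09 for Proximal, -0.13 for Distal and 0.09 for Outside. These contrasts chose the domain and carry no test.

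**Figure D1:**
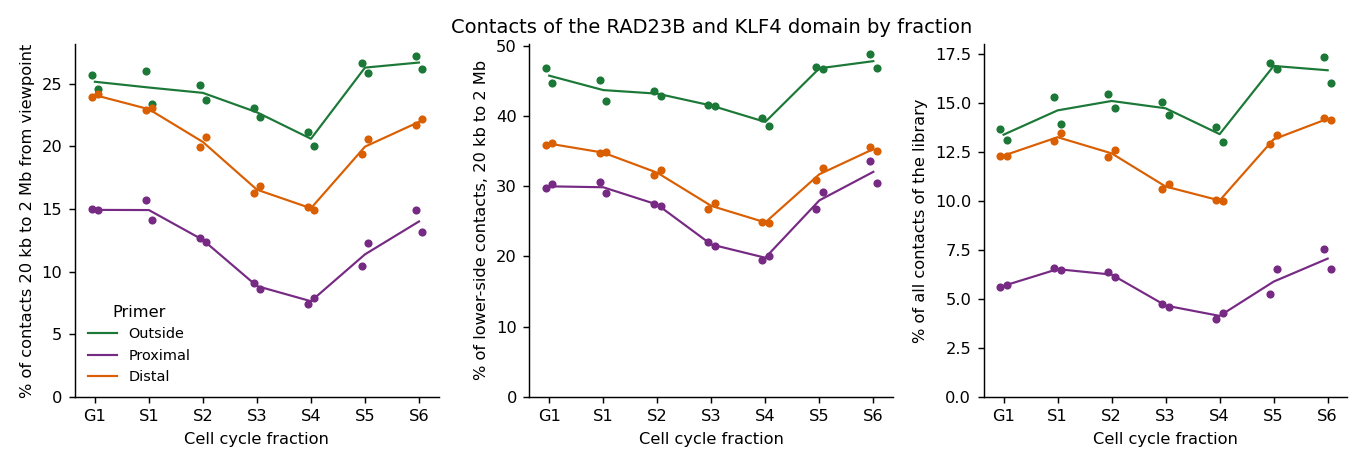
Share of contacts in the domain by cell cycle fraction, as percent of contacts 20 kb to 2 Mb from the viewpoint (left), of such contacts on the lower side (middle) and of all contacts (right). Points are single libraries, 2 for each fraction, and lines join their means. Relative to G1, the S4 low of the Outside primer is seen in the left and middle panels and not in the right one. There its mean was 13.4% in S4 and 13.4% in G1, with higher means in S1, S2, S3, S5 and S6.

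The size of the S4 low depended on what the share was taken of. The zone up to 2 Mb itself took 66.6% of a Distal library in S4 and 51.1% in G1 on average, and its part above the viewpoint made up 39.4% in S4 and 33.2% in G1. Taken of the whole library, the Distal domain share averaged 12.3% in G1, 10.0% in S4 and 14.2% in S6. The Proximal means were 5.67% in G1, 4.13% in S4 and 7.06% in S6.

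For the Outside primer no S4 low relative to G1 was left on the whole-library scale. Its libraries had 13.7 and 13.1% in G1, 13.8 and 13.0% in S4, and 17.4 and 16.0% in S6, and those of G1 and S4 overlap. Both S4 libraries still lay below both libraries of S1, S2, S3, S5 and S6, of which the lowest was S1 replicate 2 with 13.96%. On that scale S6 lay above G1 with no overlap for all 3 primers.

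Among lower-side contacts alone the S4 low remained for each viewpoint. There the domain's share averaged 19.8% in S4 and 29.98% in G1 for Proximal, 24.8% in S4 and 36.1% in G1 for Distal, and 39.2% in S4 and 45.8% in G1 for Outside. Counting each position once gave local shares of 11.03% in S4 and 18.3% in G1 for Proximal, 19.1% and 26.9% for Distal, and 26.3% and 29.95% for Outside, S4 first in each pair. The share of domain contacts that repeated a position was 24.4% in S4 and 28.1% in G1 for Distal, 36.1% in S4 and 43.8% in G1 for Proximal, and 43.8% in S4 and 40.8% in G1 for Outside; its part in the low was not tested.

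From Proximal and Distal, fractions that did not choose the domain also differed in local share. S3 and S5 lie on either side of S4 in the sort order, so they are not fully separate from that choice. Over the 8 libraries of S1, S2, S3 and S5, an exact permutation test of F gave an adjusted p of 0.0286 for Proximal (F of 15.6) and 0.0286 for Distal (F of 45.3), adjusted over the 3 primers. For Outside it gave 0.133 (F of 3.58). The smallest unadjusted p this test can give is 0.00952. The Proximal call was lost without S1 replicate 1, S2 replicate 1, S2 replicate 2, S3 replicate 1 or S3 replicate 2, with adjusted p between 0.0571 and 0.1. Both calls were also lost when the share was taken of the whole library (0.114 for Proximal, 0.0571 for Distal), of lower-side contacts (0.0571 for both) or with contacts within 20 kb included (0.0714 for both). Permutation within replicate number cannot decide this. It has fewer arrangements, and both primers already had the smallest p it can give, as set out under the processing alternatives.

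Both S3 libraries lay below all 6 libraries of S1, S2 and S5 for every primer, a pattern noticed in the data. The highest S3 value and the lowest of the other 6 were 9.05% and 10.4% for Proximal, 16.8% and 19.4% for Distal, and 23.1% and 23.4% for Outside. The contrast set for the test, S3 and S5 together against S1 and S2, joined the low S3 with the higher S5. It averaged 10.1% ± 1.66 in S3 and S5 against 13.7% ± 1.54 in S1 and S2 for Proximal, and 18.3% ± 2.06 against 21.7% ± 1.55 for Distal (SD, n = 4 each). For Outside the means were 24.5% ± 2.11 in S3 and S5 and 24.5% ± 1.21 in S1 and S2 (SD, n = 4 each). None passed after adjustment in the exact two-sided permutation test: the adjusted p was 0.0857 for Proximal and Distal and 0.971 for Outside, and the smallest unadjusted p possible is 0.0286. Without S5 replicate 2 the Distal difference passed, at an adjusted p of 0.0429, and without S1 replicate 2, S2 replicate 2, S5 replicate 1 or S5 replicate 2 the Outside difference changed sign, with values down to -0.71 points.

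The viewpoints saw the domain at different levels. Over 14 libraries each, the local share averaged 24.4% ± 2.15 from Outside, 12.0% ± 2.86 from Proximal and 20.1% ± 3.20 from Distal (SD). Outside exceeded Distal by 4.22 points and Proximal by 12.3 points, and Proximal was lower than Distal by a difference of -8.11 points. A two-sided permutation test within fractions gave an adjusted p of 1e-05 for each pair, the smallest that its 100000 resamples can give. The G1, S4 and S6 libraries that chose the domain entered this test. The libraries of a pair did not overlap in 7 of 7 fractions. Outside lies nearest to the domain and Proximal farthest, so viewpoint and distance cannot be told apart.

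Contacts were not spread evenly over the domain. The bins with most Distal contacts were 110180001 to 110200000 with 1873, 110220001 to 110240000 with 1502 and 110200001 to 110220000 with 1473, against a median of 559 over the 43 bins. From Proximal the 3 fullest bins were those starting at 110180001 with 683 contacts, 110200001 with 655 and 110140001 with 585. From Outside the fullest were the bins starting at 110680001 with 1855 contacts and 110660001 with 1646, at the edge nearest that viewpoint, and then 110220001 with 1546.

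The 6 bins from 110120001 to 110240000, set apart as a crest after the profiles had been seen, held 5.04 contacts per kb and library from Distal, where the stretch below it held 1.61 and the stretch above it 2.08. From Outside the values were 3.49 for the crest, 1.09 below and 3.75 above. Over the 43 bins the summed profiles of Proximal and Distal correlated with a Pearson's r of 0.90, Proximal and Outside with 0.33, and Distal and Outside with 0.43. These bins share libraries and neighbours, so the values describe likeness only. Replicates of a fraction correlated between 0.42 and 0.75 for Proximal, between 0.88 and 0.93 for Distal and between 0.86 and 0.93 for Outside. Proximal bins hold few contacts. Between replicates over the bins, chi-square per degree of freedom ran from 1.12 (Distal S4) to 3.01 (Proximal S5). The cause of the lower Proximal correlation was not tested.

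**Figure D2:**
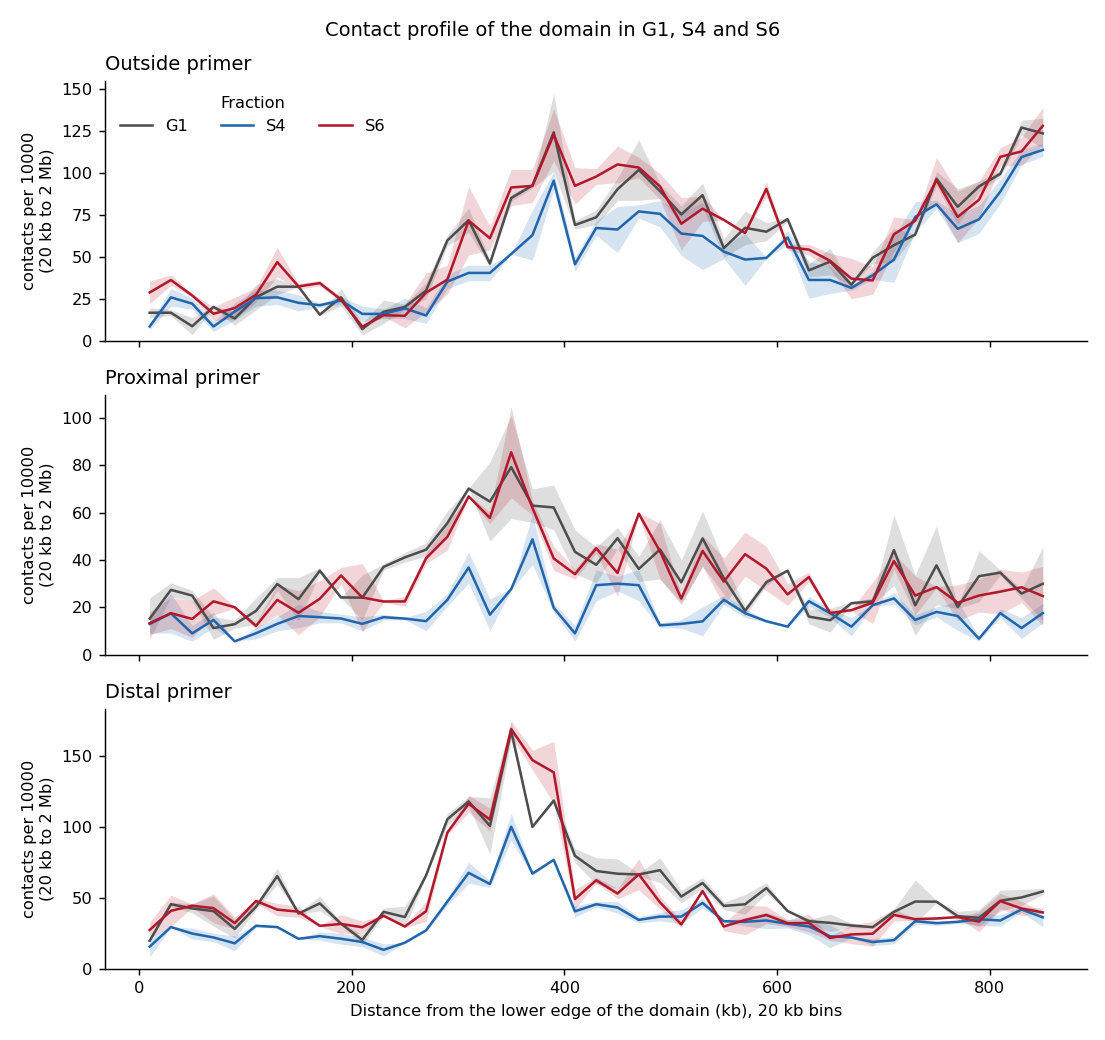
Contacts per 10000 contacts of the zone 20 kb to 2 Mb from the viewpoint, in 20 kb bins along the domain, for G1, S4 and S6. Lines are means of 2 libraries and bands span both; the Distal crest averages 7.10% of the zone in G1, 4.18% in S4 and 7.71% in S6.

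From its lower part up to most of the crest, the domain took a smaller local share from Outside than from Distal, although the Outside viewpoint lies nearer. Bins that passed a filter of 20 contacts per library from both primers were compared with limma, with fraction as a term and Benjamini-Hochberg adjustment over all bins tested. The G1, S4 and S6 libraries entered these fits too. Between Outside and Distal, 10 of 36 domain bins were lower from Outside, where 35.7% of all 84 bins tested were, and 22 were higher, where 58.3% of all were. These shares sit near the background, and the 2 sets separated by position: the 10 bins lower from Outside all started between 109860001 and 110200001, and the 22 higher ones all between 110260001 and 110680001.

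The bin 110180001 to 110200000 had a log2 ratio of Outside over Distal of -0.90 (SE 0.077, limma adjusted p 1.0e-20). It held 83.03 and 87.1 contacts per 10000 from Outside in G1, against 174 and 161 from Distal. At the near edge, bin 110680001 to 110700000 had a log2 ratio of 1.45 (SE 0.082, limma adjusted p 1.7e-33), and there Outside held 133 and 115 against 52.4 and 56.6 from Distal in G1. In both bins the G1 libraries of the primers did not overlap. Taking lower-side contacts as library size or counting distinct positions changed how many bins passed, as given under the processing alternatives.

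Proximal and Distal, the pair of viewpoints nearest to each other, differed mostly in one direction inside the domain. Of 19 bins past the filter, 16 were lower from Proximal, where 48.8% of all 84 bins tested were, and 0 were higher, where 42.9% of all were. In limma these 16 were also the bins with an unadjusted p under 0.05. With lower-side contacts as library size, 42.1% of the domain bins were lower and 15.8% higher, so the single direction was lost. The largest of these differences was in bin 110220001 to 110240000, with a log2 ratio of -1.43 (SE 0.10, limma adjusted p 1.1e-17). Against Proximal, Outside was higher in 14 of 17 bins, where 63.5% of all 52 were, and lower in 1, where 30.8% were, namely 110100001 to 110120000.

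The S4 low was spread over many bins of the domain. The log2 ratio of S4 over G1 was below 0 in 43 of 43 bins from Distal, 40 from Proximal and 37 from Outside. From Distal 35 of 41 bins past the filter had both S4 libraries below both G1 libraries, where 36.6% of all 123 bins did. From Proximal 15 of 19 did, where 26.9% of all 93 did, and from Outside 19 of 36, where 23.9% of all 88 did. The median log2 ratio of S4 over G1 was -0.63 in the domain and -0.06 over all bins for Distal, -1.23 and -0.03 for Proximal, and -0.27 and 0.01 for Outside. Since this contrast set the edges, nothing is read from these counts.

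Among bins past the filter the lowest Distal ratio of S4 over G1 was in 110060001 to 110080000, with 17.6 and 9.13 contacts per 10000 in S4 against 42.9 and 37.3 in G1, a log2 ratio of -1.59. Next came 110100001 to 110120000, with 25.9 and 28.3 in S4 against 66.7 and 65.0 in G1, and 110120001 to 110140000, with 49.9 and 44.7 in S4 against 101 and 110 in G1. S4 and G1 did not overlap in these 3 bins, which lie in the crest or below it.

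From Proximal the lowest ratio past the filter was in 110240001 to 110260000, with 5.70 and 12.3 contacts per 10000 in S4 against 34.2 and 52.7 in G1, a log2 ratio of -2.27. The bins 110160001 to 110180000, with 10.3 and 23.5 in S4 against 81.3 and 47.9 in G1, and 110320001 to 110340000, with 11.4 and 13.5 in S4 against 56.9 and 31.9 in G1, followed. Here too S4 and G1 did not overlap, though the G1 libraries stood well apart from each other.

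From Outside the lowest ratio past the filter was -0.99 in 110100001 to 110120000, with 19.7 and 10.4 contacts per 10000 in S4 against 34.6 and 25.2 in G1. It was -0.83 in 110140001 to 110160000, with 45.0 and 35.8 in S4 against 64.6 and 79.1 in G1. It was -0.76 in 110120001 to 110140000, with 39.4 and 31.1 in S4 against 56.5 and 63.1 in G1. The 3 bins lie beside each other and hold no overlap between S4 and G1.

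**Figure D3:**
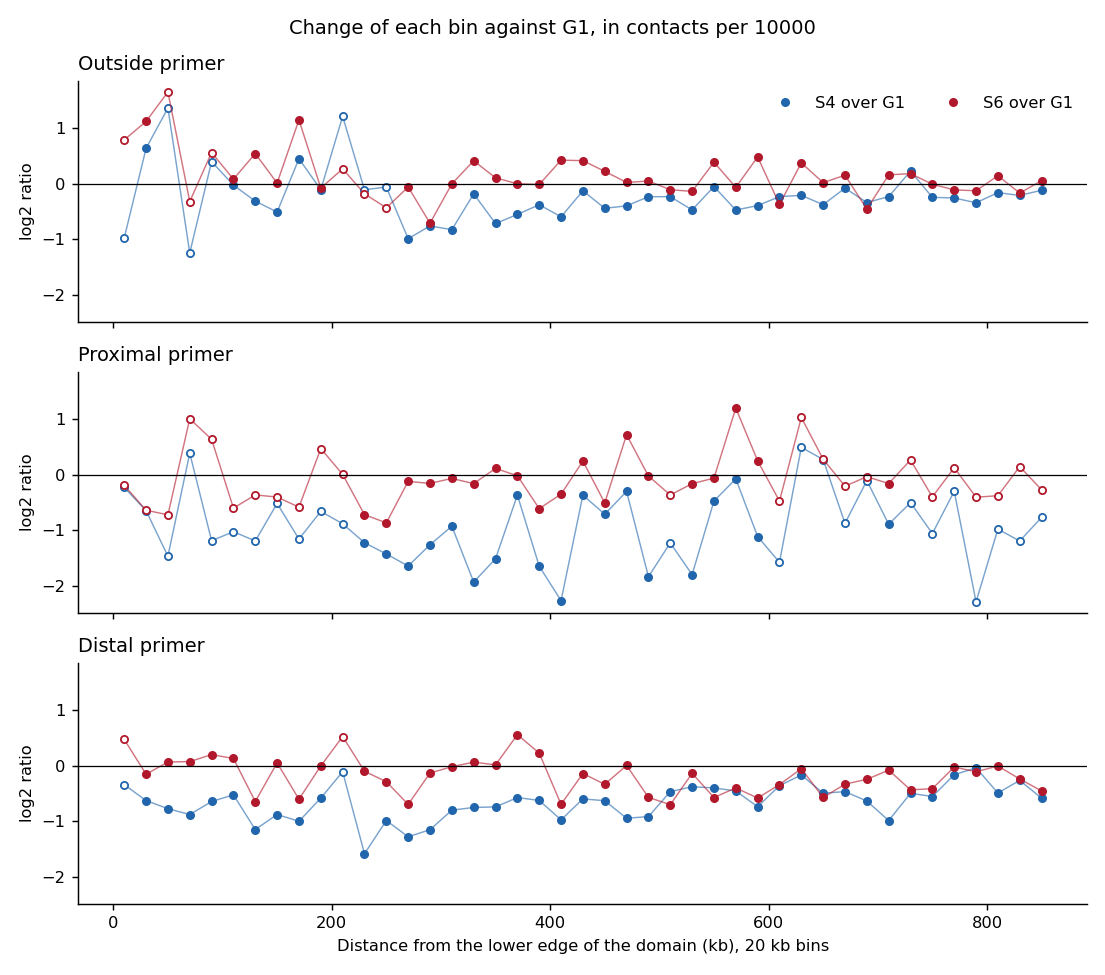
Log2 ratio of contacts per 10000 in S4 over G1 (blue) and S6 over G1 (red) for each 20 kb bin of the domain, by distance from the lower edge. Filled points are bins with a mean of at least 20 contacts per library and open points the others; for Distal the S4 ratio is below 0 in 43 of 43 bins, and the S6 ratio in 31.

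The return in S6 differed along the domain. From Distal 26 of 41 bins had both S6 libraries above both S4 libraries, where 26.0% of all bins did, from Proximal 16 of 19, where 24.7% did, and from Outside 19 of 36, where 22.7% did. Set against G1, 14 of 41 Distal bins remained lower in S6 without overlap, where 26.0% of all did, and 2 were higher, where 25.2% were. From Outside 4 of 36 were lower, where 15.9% of all were, and 11 were higher, where 26.1% were; from Proximal 5 of 19 were lower, where 16.1% were, and 2 higher, where 25.8% were.

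Among bins past the filter, the highest ratios of S6 over S4 from Distal were in 110060001 to 110080000, with 38.2 and 36.4 contacts per 10000 in S6 against 17.6 and 9.13 in S4, in 110200001 to 110220000, with 154 and 140 in S6 against 65.7 and 68.5 in S4, and in 110120001 to 110140000, with 94.2 and 97.8 in S6 against 49.9 and 44.7 in S4. Of these 3, the bin 110200001 to 110220000 alone lay above G1, where it had 99.99 and 99.9, by a log2 ratio of 0.56. From Proximal they were 110240001 to 110260000 (log2 ratio 1.91), 110320001 to 110340000 (1.81) and 110160001 to 110180000 (1.77); this ratio and that of S4 over G1 share the S4 libraries. From Outside they were 110240001 to 110260000 (1.02), 110100001 to 110120000 (0.93) and 110420001 to 110440000 (0.88). In 110100001 to 110120000 the Outside libraries overlapped, with 40.3 and 17.0 contacts per 10000 in S6 against 19.7 and 10.4 in S4.

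By stretch, the Distal crest held 6.98 and 7.22% of the local zone in G1, 4.15 and 4.22% in S4, and 7.47 and 7.96% in S6, so that S6 lay above G1. Distal contacts above the crest averaged 11.4% in G1, 7.75% in S4 and 9.09% in S6, and those below it 5.65%, 3.12% and 5.16% in the same fractions. The crest thus made up 35.1% of the domain's Distal contacts in S6 and 29.4% in G1. From Outside it made up 17.8% in S6 and 19.1% in G1, and from Proximal 25.9% and 26.4%. As local share, the crest averaged 4.79% in G1 and 4.76% in S6 from Outside, and 3.94% and 3.62% from Proximal. The stretch above it averaged 17.6% in G1 and 18.4% in S6 from Outside, and 7.29% and 7.30% from Proximal. The rise of the crest over G1 was thus seen from Distal only. Within the Distal crest, bin 110200001 lay above G1 in S6 without overlap and bin 110120001 below it.

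**Figure D4:**
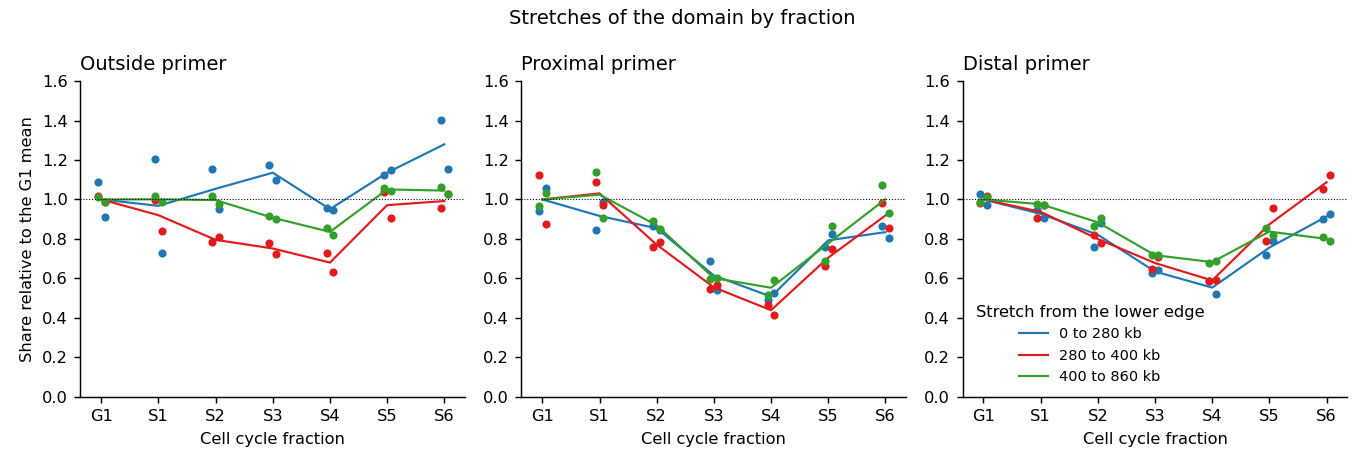
Local share of 3 stretches of the domain relative to the G1 mean of each, by fraction: 0 to 280 kb from the lower edge (blue), 280 to 400 kb, the crest (red), and 400 to 860 kb (green). Points are single libraries and lines join means of 2; for Distal in S6 the crest stands 8.70% above its G1 mean and the stretch above it 20.01% below.

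In the tested fractions few single bins passed. With limma over all bins of a primer, S3 and S5 against S1 and S2, 1 of 19 domain bins was lower from Proximal, where 4.30% of 93 bins were, 2 of 41 from Distal, where 3.25% of 123 were, and 0 of 36 from Outside, where 0% of 88 were. No domain bin was higher, where 5.38% of Proximal, 10.6% of Distal and 1.14% of Outside bins were, and all 6 Proximal, 7 Distal and 1 Outside domain bins with an unadjusted limma p under 0.05 were lower. Over all bins, 10 of 93 Proximal, 15 of 123 Distal and 3 of 88 Outside bins were lower at that unadjusted threshold. The median log2 ratio in the domain and over all bins was -0.42 and 0.02 for Proximal, -0.25 and -0.04 for Distal, and -0.03 and 0.03 for Outside, with 19 of 19, 38 of 41 and 19 of 36 domain bins below 0. Over all bins 43 of 93, 65 of 123 and 42 of 88 were, so the Outside count is near the background.

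The Proximal bin was 110180001 to 110200000, with 45.8 and 35.6 contacts per 10000 in S3 and 48.7 and 47.4 in S5, against 90.7 and 86.8 in S1 and 72.9 and 70.8 in S2. Its log2 ratio was -0.84 (SE 0.21, limma adjusted p 0.0205). The Distal bins were 109940001 to 109960000, at -0.62 (SE 0.18), and 110440001 to 110460000, at -0.59 (SE 0.17), both with a limma adjusted p of 0.0152.

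The count of called bins moved with single libraries. For Proximal it was 0 without S2 replicate 1, S2 replicate 2, S3 replicate 1, S3 replicate 2 or S5 replicate 1, 2 without G1 replicate 1, S1 replicate 1 or S5 replicate 2, and 3 without S1 replicate 2. For Distal it was 0 without S2 replicate 2, 1 without S1 replicate 2, S3 replicate 1 or S5 replicate 1, and 4 without S3 replicate 2.

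Because S5 had already come back up, S3 against S1 and S2 and S5 against S3 were also fitted, both chosen after the shares had been seen. In S3, 4 of 19 Proximal bins were lower, where 4.30% of all were, 3 of 41 Distal bins, where 2.44% were, and 1 of 36 Outside bins, where 1.14% were. No domain bin was higher in S3, where 1.08% of Proximal, 4.88% of Distal and 1.14% of Outside bins were, and at an unadjusted limma p under 0.05 only 1 was, from Outside. In S5 against S3, 0 of 19 Proximal bins were higher, where 0% of all were, with 2 at an unadjusted limma p under 0.05, while 1 Distal bin was higher, where 0.813% of all were, and 1 Outside bin, where 1.14% were. None was lower there, where 1.63% of Distal and 0% of the other primers' bins were, also at an unadjusted limma p under 0.05. The Outside bin, 110220001 to 110240000, had 138 and 153 contacts per 10000 in S5 against 63.8 and 76.9 in S3, with no overlap, a log2 ratio of 1.04 (SE 0.20) and a limma adjusted p of 2.2e-05. Without each library in turn, 1 Outside domain bin passed in this contrast.

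The other called bins of both added contrasts came and went. For Proximal in S3, 0 passed without S2 replicate 1, S2 replicate 2, S3 replicate 1 or S3 replicate 2, and 1 or 2 without G1 replicate 2, S1 replicate 1, S5 replicate 1, S5 replicate 2 or S6 replicate 1. For Distal, 0 passed without S2 replicate 2 or S3 replicate 1, 1 without S2 replicate 1, S3 replicate 2 or either S4 library, and 5 to 7 without S1 replicate 1 or either library of G1, S5 or S6. For Outside, 0 passed without either S1 library, S2 replicate 2 or S3 replicate 1. The Distal call in S5 was lost without S2 replicate 2, S5 replicate 2 or either library of S3 or S4. The Proximal bins lower in S3 started at 110160001 (log2 ratio -1.25, SE 0.34) and 110180001 (-0.96, SE 0.26), both with a limma adjusted p of 0.0287. The others started at 110280001 (-1.11, SE 0.34) and 110120001 (-0.93, SE 0.28), both with a limma adjusted p of 0.0472. The bin 110180001 to 110200000 was also higher in S5 than in S3 from Distal, with 139 and 153 contacts per 10000 in S5 against 90.8 and 99.6 in S3. Its log2 ratio there was 0.61 (SE 0.17, limma adjusted p 0.0401).

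Next to the domain, the stretch that runs up to the Outside viewpoint (110700001 to 111090105) did not follow it from every viewpoint. From Distal it held 8.73% of the local zone in G1, 7.45% in S4 and 6.78% in S6 on average, so it did not come back up. From Outside it held 24.3% in G1, 28.04% in S4 and 23.6% in S6, highest where the domain was lowest. From Proximal it held 5.40% in G1, 3.81% in S4 and 4.93% in S6.

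At the same distances above the viewpoint, Distal contacts took up 5.60% in G1, 4.49% in S4, then 6.57% in S6. Proximal contacts there took up 5.83%, 4.72% and 5.21%, and Outside contacts 7.31%, 10.2% and 9.86%. Over all fractions the lowest mean there was in S3 and not in S4 for Distal (4.11%) and Proximal (4.16%). The difference of the domain from these stretches in G1, S4 and S6 was not tested, since those fractions chose the domain. At the edges themselves mean Distal contacts were lower in S4 than in G1 on both sides. The 40 kb inside the upper edge held 105 contacts per 10000 in G1, 78.03 in S4 and 82.2 in S6, and the 40 kb outside it 93.4, 73.4 and 60.5. Inside the lower edge the Distal values were 65.2 in G1, 45.0 in S4 and 68.2 in S6, and outside it 49.7, 25.7 and 43.5. The Distal ratio of S4 over G1 was thus 0.69 inside the lower edge and 0.52 outside it. For Proximal this ratio was 0.71 inside and 0.91 outside the lower edge, and 0.52 and 0.78 at the upper edge. For Outside it was 1.03 inside and 0.60 outside the lower edge, and 0.89 and 1.19 at the upper edge.

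**Figure D5:**
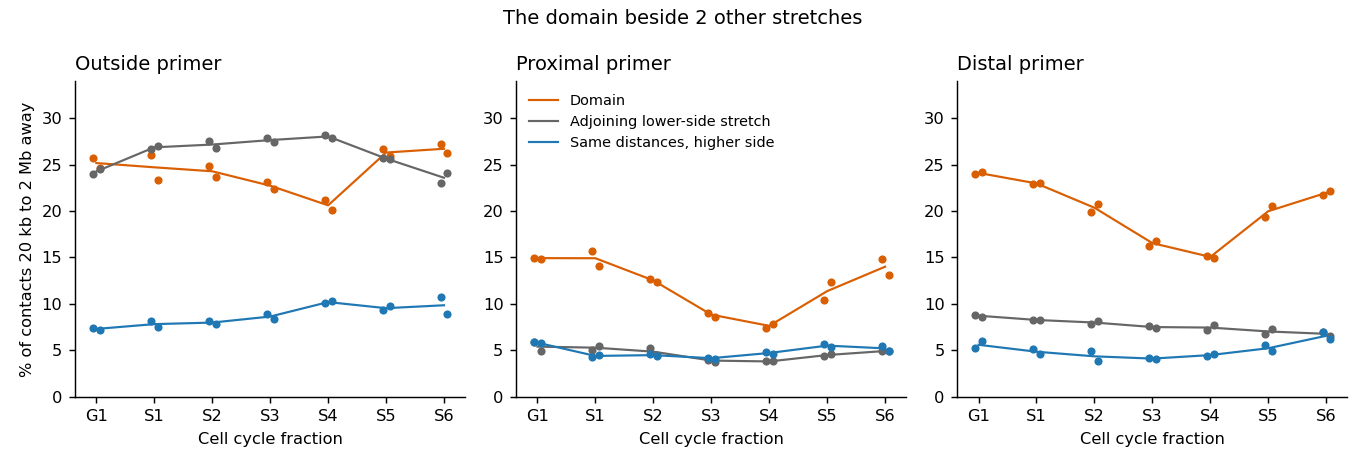
Percent of contacts 20 kb to 2 Mb from the viewpoint in the domain (orange), in the adjoining stretch up to the Outside viewpoint (grey) and at the same distances above the viewpoint (blue), by fraction. Points are single libraries and lines join means of 2; the Outside primer's adjoining stretch has its highest mean, 28.04%, in S4, where the domain has its lowest, 20.6%.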

How the data were processed

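The members, stretches and tests were chosen with earlier results of these data known. Per the labels' protocols, DNA of sorted, fixed cells was digested, ligated in situ, sonicated and extended from a biotinylated primer, and an adapter with random molecular barcodes was added. Cutadapt, bedtools and the build hg19 are named in the submitters' processing notes. What aligned the reads, how barcodes were handled and how every file came to 16350 lines is not given in the sources used here. In the deposited files, per the file headers, a line gives 1 position and no value, so the authors supplied no other unit such as a count or ratio. Counts of lines were made here.

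Shares were tested by permutation, with S1, S2, S3 and S5 alone for fractions. Bins of 20 kb that averaged 20 or more lines were tested with limma 3.58.1 (R 4.3.3) on log2(scaled lines + 1), with a trend and a Benjamini-Hochberg adjusted p below 0.05. Scaling was to lines over 20 kb and up to 2 Mb from the viewpoint; the pseudocount understates changes of low bins. Named bins were the 3 fullest per primer, the 3 with the lowest S4 over G1 ratio and the 3 with the highest S6 over S4 ratio among bins past that filter, and called bins. Called bins between primers, and Distal and Outside bins called in S3 against S1 and S2, are not listed in full. Bin 110680001 and other bins are shown between primers after their values were seen. The models were tested on simulated data; the null check of the permutation test was redrawn with more draws and another seed after its first set held no small p-value. Alternatives covered the denominator, distinct positions, edges, bin size, filter, pseudocount, trend, a replicate block and leaving out libraries. The contrasts S3 against S1 and S2 and S5 against S3 were added after the shares were seen. Between primers, alternatives are recorded as percent of tested bins, a form chosen after counts under other bin sizes had been seen. Figures used Python 3.11.15 with matplotlib 3.10.9.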

Additional observations from a re-analysis of the deposited data

Results flagged for a closer look

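The domain moved in opposite directions from different viewpoints in 6 comparisons with G1, each on 1 of 2 scales. Its local share was higher in S5 than in G1 in both libraries of the Outside primer and lower in both of the other primer, a difference of 4.68 points from Proximal and 5.25 points from Distal. The Outside margin was narrow, with 25.90% in the lower S5 library and 25.75% in the higher G1 library, and their Wilson intervals overlap. In S6 over G1 Outside was again higher, by 2.46 points relative to Proximal and 3.68 points relative to Distal; the higher Proximal S6 library and the lower G1 library both had 14.9%. As a share of the whole library, S3 was higher than G1 from Outside and lower from the other primer, by 2.35 points from Proximal and 2.93 points from Distal. The differences were not tested, since G1 libraries took part in choosing the domain. On the whole-library scale S6 lay above G1 for all 3 primers and Distal S5 above G1, and on the local scale S3 lay below G1 for all 3.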

How the results depend on the processing

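The F tests over S1, S2, S3 and S5 lost their calls with all lines of the library (F 6.13 for Proximal, 41.5 for Distal), with lower-side lines (20.9, 35.9) and with lines within 20 kb included (6.71, 178). With the replicate block (F 15.6 and 45.3) the permutation test gave an adjusted p of 0.0625 for both. Both had the smallest unadjusted p that this permutation can give, so this setting cannot tell whether the calls hold. Replicate-1 deviations of bins correlated between -0.282 and 0.247 over pairs of fractions, which does not settle whether the numbers pair the libraries. From Outside the local share was higher in replicate 1 than in replicate 2 in every fraction, with 25.7 and 24.6% in G1. A shared effect of replicate number was not tested. Without single libraries F ran from 8.17 to 26.9 for Proximal, 24.2 to 84.8 for Distal and 1.72 to 11.6 for Outside. Differences of S3 and S5 from S1 and S2 ran from -4.35 to -2.94 points for Proximal, -4.18 to -2.74 for Distal and -0.71 to 0.74 for Outside; shortening the domain gave -0.10 for Outside. The log2 ratio of S4 over G1 was -0.73, -0.49 and -0.19 (Proximal, Distal, Outside) with distinct positions, -0.46, -0.30 and 0.0027 with all lines, -0.60 and -0.54 (Proximal, Distal) with lower-side lines, -0.64, -0.58 and -0.22 with lines within 20 kb, and -0.70 for Distal with the domain shortened. That of S6 over S4 was 0.63, 0.36 and 0.21 with distinct positions, 0.69, 0.51 and 0.29 with lower-side lines and 0.50 for Distal with all lines. Without single libraries S4 over G1 ran from -1.01 to -0.92, -0.69 to -0.67 and -0.33 to -0.25, and S6 over S4 from 0.78 to 0.96, 0.53 to 0.56 and 0.34 to 0.41.

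Called domain bins for S3 and S5 against S1 and S2 numbered 0 (10 kb bins), 4 (40 kb bins), 2 (pseudocount of 5), 0 (no trend) and 2 (distinct positions) for Proximal, against 1, and 6 for Distal with 40 kb bins, against 2; without single libraries 0 to 3, 0 to 4 and 0 to 0 for Outside. For S3 against S1 and S2 other settings gave 0 to 4, 0 to 9 and 0 to 1, and for S5 against S3 0 to 0, 0 to 1 and 1 to 3. Between primers, Proximal over Distal had 42.1% of bins lower and 15.8% higher with lower-side lines, against 84.2% and 0%. Outside over Distal had 42.1% lower with 40 kb bins and 17.9% with distinct positions, against 27.8%. Outside over Proximal had 2.94% lower with 10 kb bins, 10% with 40 kb bins, 11.8% with lower-side lines, 9.30% with a mean of at least 5 lines, and 0% with all lines, a mean of at least 40 lines or distinct positions, against 5.88%. Bins lower in S4 than in G1 were 51.2% for Distal and 13.9% for Outside with all lines, against 85.4% and 52.8%. The cause was not tested in any of these. Equal file sizes hide sequencing depth, and low Proximal bins limit what single bins can show.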
